A study of Mus musculus with 36 samples.

Results

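The liver detoxifies ammonia through the urea cycle, and the transcripts of its enzymes were followed here across the day in mice with and without thyroid hormone receptor beta (THRB). The 9 genes were taken by name from a deposited table of 54532 genes: Cps1, Otc, Ass1, Asl and Arg1, which encode the enzymes of the cycle, Nags, which makes the activator of the first of them, and Gls2, Asns and Aldh4a1, which release, consume or pass on the nitrogen that enters it. All 9 passed the filter on low counts, which left 17994 genes for testing. RNA was sequenced from 36 livers of male mice aged 2 to 3 months on a C57Bl/6NCrl background, which were fed chow and kept in 12 h of light and 12 h of darkness. The 18 controls, called THRBWT, were not wild-type but heterozygous (THRB+/-), and the 18 knockouts, called THRBKO (THRB-/-), lacked both receptor isoforms in the whole body. Livers were taken at zeitgeber time (ZT, hours after lights on) 2, 6, 10, 14, 18 and 22, from 3 mice per genotype and time, each a separate animal lettered a, b or c. Because the deletion is systemic, hormone and feeding state outside the liver can differ between the genotypes and cannot be told apart from the loss of the receptor in hepatocytes.

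In the cycle, carbamoyl phosphate synthetase 1 (Cps1) and ornithine transcarbamylase (Otc) work in the mitochondrion, where they join ammonia and bicarbonate to ornithine as citrulline. Argininosuccinate synthetase (Ass1), argininosuccinate lyase (Asl) and arginase 1 (Arg1) work in the cytosol, bring in the second nitrogen from aspartate and release urea. The cycle is a hallmark of periportal hepatocytes, whereas glutamine synthetase clears remaining ammonia around the central vein. Thyroid hormone receptors bind DNA as transcription factors and regulate many metabolic genes of the liver.

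Promoter sequences from RefSeq (GRCm38.p6) were at hand for 5 of the 9 genes, namely Ass1, Aldh4a1, Asns, Nags and Otc. The 250 bases before the RefSeq transcription start are printed for the 3 in which a searched motif of 6 or more letters was found, 5′ to 3′ in the direction of the gene, with the motif in capitals. The Asns stretch (chr6:7693210-7693459, minus strand) is shown because this gene varied most among mice. The Ass1 stretch (chr2:31470020-31470269, plus strand) belongs to the gene with the highest level per length, and the Nags stretch (chr11:102145263-102145512, plus strand) to one of the 2 genes that were rhythmic in both genotypes.
Asns: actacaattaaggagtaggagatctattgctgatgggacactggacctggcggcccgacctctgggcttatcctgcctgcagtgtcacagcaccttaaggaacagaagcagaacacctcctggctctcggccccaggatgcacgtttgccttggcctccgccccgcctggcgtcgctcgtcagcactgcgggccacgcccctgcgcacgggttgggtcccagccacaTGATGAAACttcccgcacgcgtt
Ass1: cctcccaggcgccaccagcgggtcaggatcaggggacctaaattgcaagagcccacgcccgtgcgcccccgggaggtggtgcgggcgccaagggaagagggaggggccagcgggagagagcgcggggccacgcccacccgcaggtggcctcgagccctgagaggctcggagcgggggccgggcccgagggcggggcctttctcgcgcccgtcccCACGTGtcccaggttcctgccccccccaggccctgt
Nags: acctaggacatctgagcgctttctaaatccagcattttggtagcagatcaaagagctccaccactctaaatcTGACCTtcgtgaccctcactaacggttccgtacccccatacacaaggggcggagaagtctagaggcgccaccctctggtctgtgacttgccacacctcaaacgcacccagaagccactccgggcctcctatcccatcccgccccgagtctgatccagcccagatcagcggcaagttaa

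The capitals in Asns mark TGATGAAAC, which starts at position -23 from the transcription start and matches the amino acid response element searched as TGATGNAAN, the kind of element through which ATF4 acts. These letters occurred in 3.95% of 32851 RefSeq promoters on either strand. In Ass1 the capitals mark the E-box CACGTG, a sequence bound by circadian clock factors among others, at position -36, and it occurred in 7.15% of promoters. In Nags they mark TGACCT, the reverse of the nuclear receptor element AGGTCA, at position -178, with that element in 16.3% of promoters. The D-box, the cAMP response element TGACGTCA, TTGCNNAA, TATAAA, CAAAGTCCA and the DR4 repeat of thyroid hormone receptors had no match in the 5 windows. Of all promoters, 0.0152% held DR4, 0.475% CAAAGTCCA, 0.938% each form of the D-box and 1.79% TGACGTCA. TTGCNNAA was in 10.8% and TATAAA in 13.6%. For letters as rare as DR4, 5 windows without a match were likely in any set of genes. That absence therefore says nothing about binding by the receptor. The part TGACG of the cAMP response element, too short for capitals, matched on the reverse strand in Asns at position -73. In Nags it matched at position 32, past the printed stretch, and 20.8% of promoters held it. A match is a description of the letters and does not show binding. The gene coordinates used for the counts start Ass1 at 31470207 and Asns, on the minus strand, at 7693254. These positions are upstream of the RefSeq starts, so in that annotation the E-box and TGATGAAAC lie inside their genes.

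The libraries held 29063273 to 42530551 counts, and hepatocyte markers were high in all 36, with summed levels of 64600 to 92400 CPM (counts scaled to library size). Markers of kidney, which also holds Ass1 and Asl, were below 1 CPM for 3 of 3 genes (Umod, Slc34a1, Kap). Thrb itself was no check of the labels, since its counts were present in both genotypes (log2 fold change 0.13, SE 0.053, adjusted p = 0.309 by edgeR's quasi-likelihood test), and what part of its transcript the deletion removes was not examined. Dio1, a deiodinase gene known to respond to thyroid hormone, was lower in THRBKO (log2 fold change -0.97, SE 0.137, adjusted p = 4.19e-05 by edgeR). Bulk liver cannot tell fewer cells of a type from less RNA per cell.

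The urea cycle enzymes were among the most abundant transcripts of the liver. Ass1 ranked 36th and Cps1 40th of all genes by mean CPM, Arg1 89th, Asl 155th and Otc 278th, and these 5 genes together took 0.64 to 1.2% of all counts in THRBWT (median 0.895%) and 0.706 to 1.07% in THRBKO (median 0.89%). Per kilobase of exons, Ass1 had the highest mean level over all libraries with 1330 CPM per kb, before Arg1 with 636 and Cps1 with 557 CPM per kb. Asl (163 CPM per kb), Gls2 (133) and Otc (109) formed a middle range, and Aldh4a1 (52.5) and Nags (27.5) followed. Asns, the asparagine synthetase, was lowest with 4.04 CPM per kb. The order was the same in both genotypes. The ranges over mice overlapped between Arg1 and Cps1 and among Asl, Gls2 and Otc, and they were apart between Ass1 and Arg1, Cps1 and Asl, Otc and Aldh4a1, and Aldh4a1 and Nags in both genotypes.

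**Figure D1:**
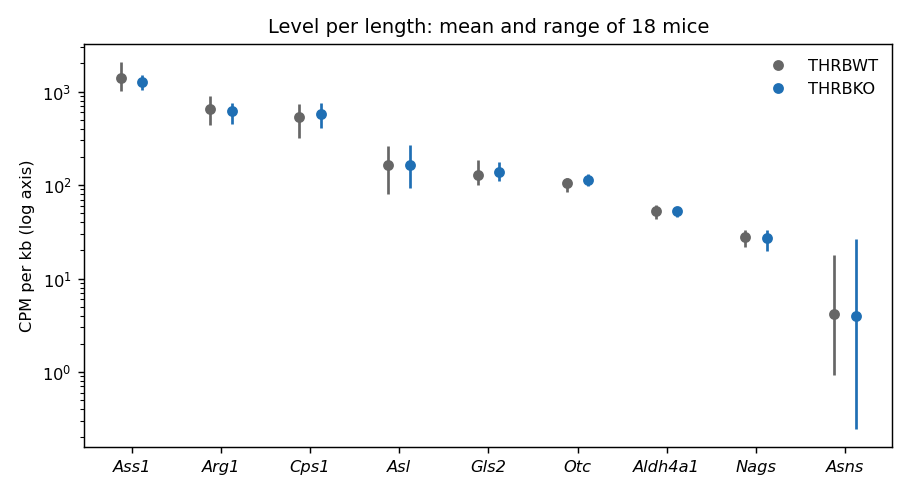
Mean level of the 9 genes per kilobase of exons (y axis, log scale, CPM per kb) in 18 THRBWT and 18 THRBKO livers; points are means and lines run from the lowest to the highest mouse. The means run from 1390 CPM per kb for Ass1 to 4.14 CPM per kb for Asns in THRBWT, and Asns has the widest range.

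With ZT as a factor, 0 of 9 genes differed between the genotypes (adjusted p under 0.05, edgeR's quasi-likelihood test), where 171 of 17994 genes did (0.95% of all tested, 0.506% higher and 0.445% lower in THRBKO). DESeq2 also called 0 of the 9, and at an unadjusted p under 0.05 edgeR called 1, Otc, beside 12.1% of all genes. The median log2 fold change of the 9 genes was -0.0073, beside -0.0011 over all tested genes.

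Otc, the mitochondrial enzyme that forms citrulline, came nearest to a difference. Its mean was 443.7 ± 35.1 CPM in THRBWT and 483.9 ± 40.6 CPM in THRBKO (SD, n = 18 each), a rise of 9.06% in the fit with a 95% interval of 3.32 to 15.1% (log2 fold change 0.13, SE 0.038, unadjusted p = 0.00255, adjusted p = 0.12 by edgeR). The THRBKO mean was the higher one at 6 of 6 sampling times. This count rests on the same values as the fit, and the share of all genes that did so was not computed. At ZT6 the THRBWT livers held 436, 395 and 448.5 CPM and the THRBKO livers 497, 458 and 466 CPM. At ZT18 they held 436, 358.5 and 471 CPM against 503, 514.5 and 492 CPM. At these times the groups did not overlap. At ZT2 they lay within each other, with 450.3, 475 and 433 CPM in THRBWT and 496, 449.9 and 442.5 CPM in THRBKO. The ranges also overlapped at ZT10, ZT14 and ZT22. Over the alternatives, the adjusted p of Otc ran from 0.0602 with DESeq2 to 0.76 without the mice lettered a.

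The other 4 enzymes of the cycle moved in no common direction. Cps1 had 2984 ± 578 CPM in THRBWT and 3204 ± 543 CPM in THRBKO (SD, n = 18 each), a change of 7.08% with a 95% interval of -3.33 to 18.6%, and its log2 fold change of 0.10 was 0.165 without letter b and 0.0617 without letter c. Ass1 lay lower in THRBKO, with 3353 ± 600.3 against 3089 ± 376 CPM and an interval of -16.7 to 1.66%, and its log2 fold change of -0.12 was -0.072 without the THRBWT liver a at ZT10. Arg1, which splits arginine into urea and ornithine, had an interval of -12.6 to 2.14%, and Asl one of -8.97 to 11%. None of these 4 passed the test (adjusted p from 0.517 for Ass1 to 0.982 for Asl, edgeR). The intervals of all 5 cycle enzymes lay within a fall of 16.7% and a rise of 18.6%.

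Among the genes that feed the cycle, Nags and Aldh4a1 were the most closely bounded. Nags, whose product N-acetylglutamate activates carbamoyl phosphate synthetase 1, had 78.2 ± 10.4 CPM in THRBWT and 77.8 ± 12 CPM in THRBKO (SD, n = 18 each), with a 95% interval of -6.37 to 5.54%. Aldh4a1, the last enzyme of proline breakdown to glutamate, had 258.4 ± 22.6 and 256.8 ± 19.5 CPM, with an interval of -4.86 to 4.05%. Gls2, the liver glutaminase that releases ammonia from glutamine, had 444.2 ± 71.1 and 476.5 ± 59.9 CPM, with an interval of -1.29 to 16.6%. For Asns the interval ran from -52.6 to 47.2%, so these mice bounded its change only loosely. Its log2 fold change of -0.26 ran from -0.757 without letter c to -0.0129 without letter a.

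**Figure D2:**
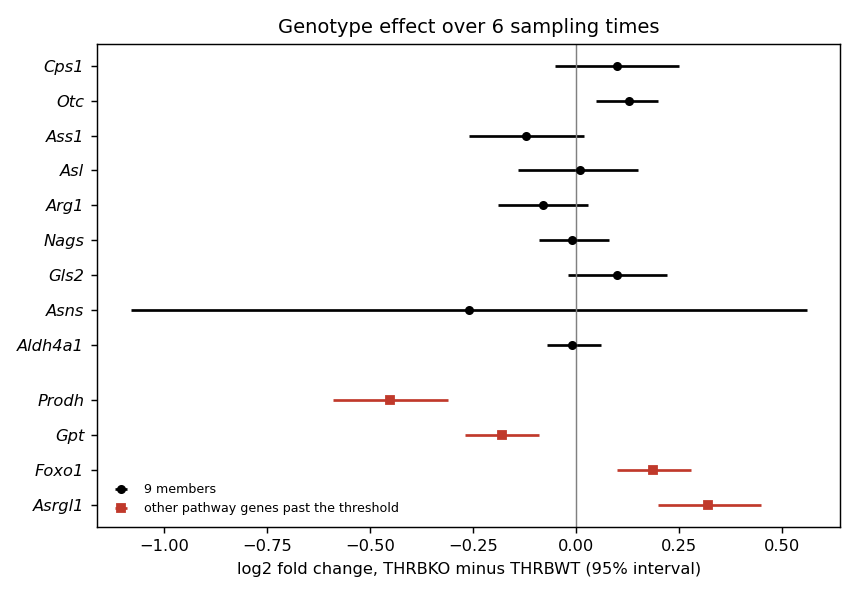
Genotype effect with sampling time in the model (x axis, log2 fold change THRBKO minus THRBWT with its 95% interval, edgeR) for the 9 genes (black) and for 4 genes of the related lists that passed the test (red). The 9 black points lie between -0.26 (Asns) and 0.13 (Otc), and only the red points are past the adjusted threshold.

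At single sampling times no member passed the test, and few genes did in all (5 at ZT2 or 0.0278%, 2 at ZT6 or 0.0111%, 3 each at ZT10 and ZT14 or 0.0167%, and 4 each at ZT18 and ZT22 or 0.0222%). With 3 mice against 3, the groups were apart without overlap in 7 of 54 pairs of gene and time. Of all genes, 6.21, 4.21, 3.98, 4.84, 5.22 and 5.07% lay wholly above the controls at the 6 times in order, and 6.65, 4.2, 3.97, 5.39, 5.16 and 4.86% wholly below, a share close to that of the members. At ZT2, Cps1 stood at 2169, 2910 and 2417 CPM in THRBWT and 3071, 3309 and 2983 CPM in THRBKO. At the same time Gls2 stood at 352, 460.2 and 426 CPM against 479.7, 486 and 514 CPM. These 2 of 9 genes lay wholly above the controls at ZT2, as did 6.21% of all genes. Otc did so at ZT6 and ZT18, beside 4.21% and 5.22% of all genes, and Cps1 at ZT14, beside 4.84%. Nags lay wholly below the controls at ZT10, with 69.6, 65.7 and 74.2 CPM in THRBWT and 64.4, 63.8 and 55.9 CPM in THRBKO (3.97% of all genes), and Asns at ZT22 (4.86%). The smallest unadjusted p values among the members were 0.0145 for Otc at ZT18, 0.0248 for Asns at ZT14 and 0.0405 for Ass1 at ZT10 (edgeR), with adjusted p from 0.839 to 1. An unadjusted p under 0.05 was met by 5.36, 5.34 and 4.12% of all genes at these times. The ZT10 difference of Ass1, a log2 fold change of -0.38, was -0.17 without the mice lettered a, among which the THRBWT liver had the highest Ass1 of all 36.

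Whether the genotype effect depended on the time of day was tested directly. The interaction of genotype and ZT called 0 of 17994 genes by edgeR (484 at an unadjusted p under 0.05, 2.69%), and unadjusted p for the 9 genes ran from 0.0913 (Asns) to 0.863 (Asl).

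**Figure D3:**
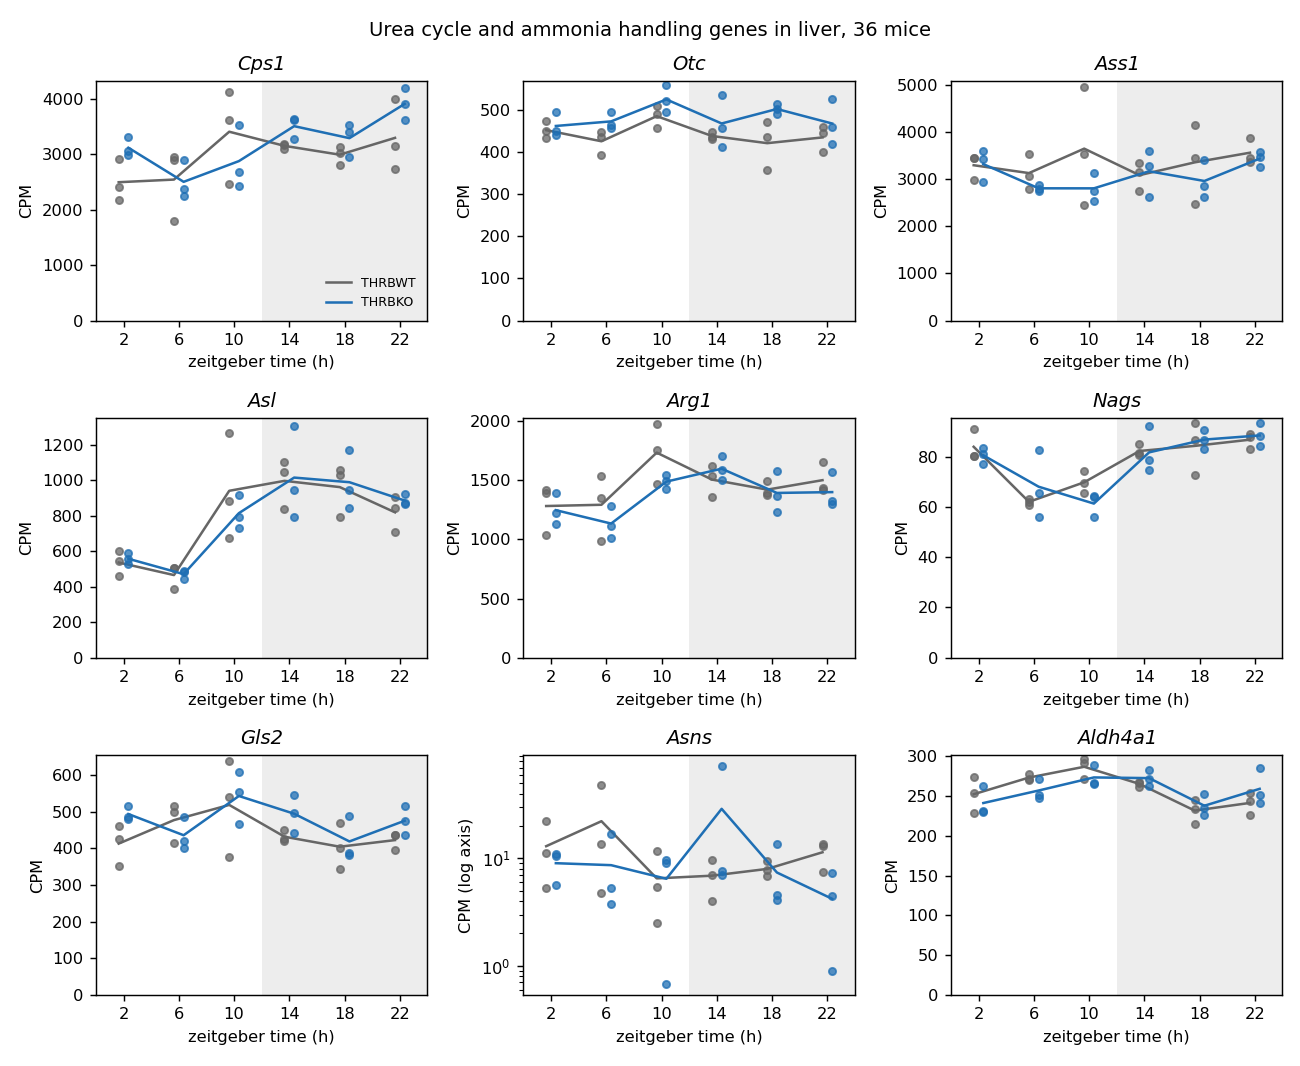
Level of each gene (y axis, CPM, log scale for Asns alone) against zeitgeber time (x axis, hours, dark phase shaded) in THRBWT (grey) and THRBKO (blue); points are single livers, 3 per genotype and time, and lines join group means. Asl climbs from about 465 CPM at ZT6 to about 1010 CPM at ZT14 in both genotypes, and single high livers stand out for Asns.

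Among the members with a detected rhythm, time of day moved Asl most. Asl encodes the lyase that cuts argininosuccinate into arginine and fumarate. At ZT2 it stood at 459.7, 602 and 546 CPM in THRBWT and 554, 591 and 526 CPM in THRBKO. At ZT6 it was lowest, with 385, 506 and 504 CPM in THRBWT and 486, 446 and 480.5 CPM in THRBKO. All 12 livers of these early light hours lay below every liver of the later times. At ZT10 the values were 1265, 882 and 673 CPM in THRBWT and 918, 730.1 and 793 CPM in THRBKO. At ZT14 they were 1045, 839 and 1104 CPM against 1303, 947 and 793 CPM. At ZT18 they were 1059, 793 and 1030 CPM against 947, 846 and 1172 CPM, and the dark phase thus held the highest level in both genotypes. At ZT22 they had come down to 905, 708 and 842 CPM in THRBWT and 920.4, 863 and 871 CPM in THRBKO. From the lowest to the highest of the 12 group means, Asl rose 2.17-fold. In the order of these means only the step from THRBKO at ZT10 to THRBKO at ZT2 separated neighbours without overlap.

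A 24 h cosine curve gave Asl an amplitude of 0.56 (SE 0.089, log2 units after variance stabilizing transformation) in THRBWT and 0.55 (SE 0.089) in THRBKO. This corresponded to a peak to trough ratio of 2.17 and 2.15. The peak fell at ZT 15.8 (SE 0.61 h) and ZT 16.6 (SE 0.62 h). The 24 h rhythm passed edgeR's test in both (adjusted p = 3.31e-05 and 3.34e-05). No difference between genotypes was detected in the amplitude (difference -0.0063, SE 0.126) or the peak time (0.73 h later in THRBKO, SE 0.87 h, unadjusted p = 0.406 by the delta method).

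Nags was the other gene with a rhythm in both genotypes. Its adjusted p was 0.00177 in THRBWT and 0.000339 in THRBKO (edgeR), and the amplitude was 0.21 (SE 0.046) and 0.26 (SE 0.046) log2 units. It was highest late in the dark phase, with a peak at ZT 19.8 (SE 0.82 h) and ZT 20.3 (SE 0.68 h), about 4 h after Asl in each. At ZT22 the livers held 89.1, 88.0 and 83.2 CPM in THRBWT and 84.1, 88.1 and 93.3 CPM in THRBKO. At ZT6 they held 61.9, 61.0 and 63.3 CPM in THRBWT and 55.8, 82.8 and 65.7 CPM in THRBKO. The ZT22 livers were above those of ZT6 without overlap in both genotypes, though the THRBKO liver b at ZT6 came close with 82.8 CPM. Without the mice lettered c the rhythm of Nags in THRBKO had an adjusted p of 0.0614.

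Of the 9 genes, 3 passed the 24 h rhythm test in THRBWT (Asl, Nags and Aldh4a1), where 35.1% of all genes did, and 4 passed in THRBKO (Asl, Nags, Cps1 and Arg1), where 31.5% did. Both genotypes shared 2 of 9, beside 24.5% of all genes. A test across the 6 times without a curve called Asl, Nags and Aldh4a1 in THRBWT (26.4% of all genes) and Asl and Nags in THRBKO (24.9%). The median amplitude of the 9 genes was 0.15 in THRBWT and 0.20 in THRBKO, beside 0.14 and 0.13 over all genes.

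The fitted peak of Aldh4a1 lay in the light, unlike those of the other 4 members that passed, a contrast that was not tested. That of Arg1 in THRBWT was close to lights off, at ZT 13.7 (SE 1.77 h). The highest THRBWT group means of Arg1 (1734 CPM) and Cps1 (3411 CPM) were at ZT10, in the light. The peak of Aldh4a1 fell at ZT 8.7 (SE 0.81 h) in THRBWT, with an amplitude of 0.14 (SE 0.03) and an adjusted p of 0.00301 (edgeR). In THRBKO the amplitude was 0.077 (SE 0.03) with a peak at ZT 11 (SE 1.5 h) and an adjusted p of 0.181. The amplitudes differed by -0.065 (SE 0.043), with an unadjusted p of 0.139 by the delta method, so no loss of rhythm was shown. Without the mice lettered c the THRBWT call had an adjusted p of 0.0742.

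Cps1 and Arg1 passed in THRBKO only narrowly. For Cps1 the amplitude was 0.25 (SE 0.079) in THRBKO and 0.18 (SE 0.079) in THRBWT, with peaks at ZT 19.3 (SE 1.2 h) and ZT 15.5 (SE 1.7 h). The delay of 3.76 h had an SE of 2.07 h and an unadjusted p of 0.0791 by the delta method. For Arg1 the amplitude was 0.20 (SE 0.065) in THRBKO and 0.14 (SE 0.065) in THRBWT. The adjusted p in THRBKO was 0.0352 for Cps1 and 0.048 for Arg1 (edgeR). Leaving out any letter raised both above 0.05, to between 0.0507 and 0.28 for Cps1 and between 0.105 and 0.236 for Arg1. In THRBWT neither passed (adjusted p = 0.21 and 0.197, edgeR).

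Otc, Ass1 and Gls2 passed the rhythm test in neither genotype. Their amplitudes ran from 0.038 (Ass1 in THRBWT, SE 0.074) to 0.15 (Gls2 in THRBWT, SE 0.065). The Ass1 amplitude in THRBWT depended on the mice included. On the log2 scale of the edgeR fit it was 0.037 with all mice and 0.119 without the liver a at ZT10 (adjusted p = 0.978 and 0.317, edgeR). It was 0.117 to 0.146 with any letter left out.

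No difference in rhythm between the genotypes was detected for the 9 genes. The joint test of the curve called 0 of 17994 genes (553 at an unadjusted p under 0.05, 3.07%), and Asns alone of the 9 had an unadjusted p under 0.05 (edgeR). By the delta method, 0 of 9 genes differed in mesor, the mean of the curve (0.645% of all genes), in amplitude (0% of all genes) or in peak time (0.05%). The smallest unadjusted p was that of the Otc mesor, 0.0042, with a difference of 0.12 (SE 0.04) log2 units and an adjusted p of 0.175, and 11.2% of all genes had a mesor difference at an unadjusted p under 0.05 (1.79% for amplitude and 7.17% for peak time). The peak time of Asns differed by 10.4 h (SE 4.7 h, unadjusted p = 0.0348, adjusted p = 0.652), but Asns had no rhythm in either genotype.

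**Figure D4:**
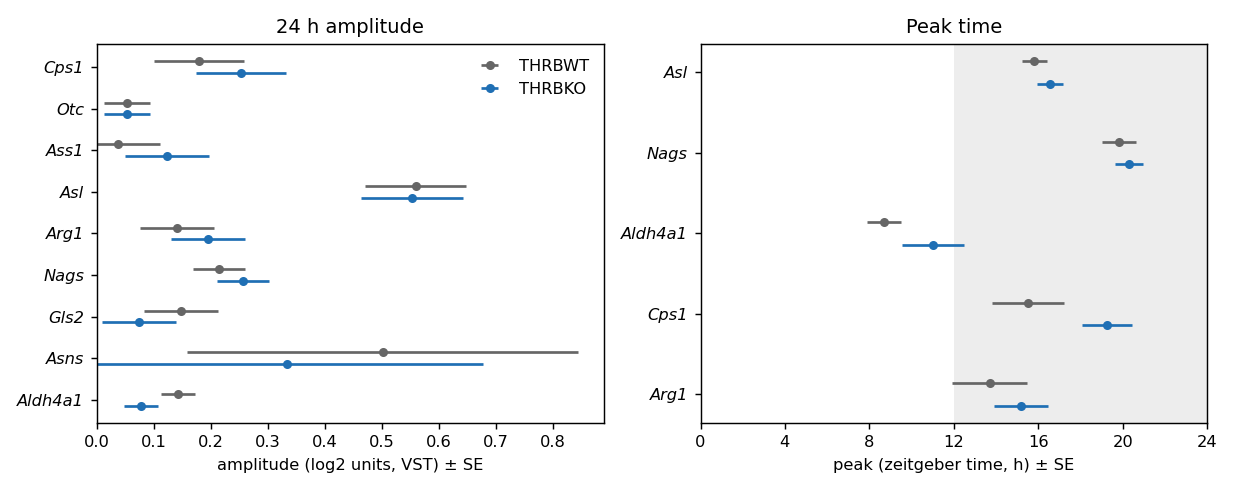
Left, amplitude of the 24 h cosine curve (x axis, log2 units, ± SE) for the 9 genes in THRBWT (grey) and THRBKO (blue); right, peak time (x axis, zeitgeber time in hours, dark phase shaded, ± SE) for the 5 genes that passed the rhythm test in at least 1 genotype. Asl has the highest amplitude of those that passed, near 0.56. The fitted peak of Aldh4a1 alone lies in the light in both genotypes. In THRBKO its rhythm did not pass, and that peak is at ZT 11 (SE 1.5 h), near lights off.

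Asns, which spends glutamine to make asparagine and is a classic target of ATF4, varied more between mice than between groups. Its level ran from 0.679 CPM (21 counts) in THRBKO liver a at ZT10 to 72.1 CPM (3221 counts) in THRBKO liver c at ZT14. At ZT14 the THRBWT livers held 9.60, 7.07 and 4.04 CPM and the THRBKO livers 7.61, 7.0 and 72.1 CPM. At ZT6 they held 4.73, 48.3 and 13.5 CPM against 3.8, 5.35 and 16.8 CPM. In both cases 1 liver carried the group mean. The log2 fold change at ZT14 was 2.07 (SE 0.876, adjusted p = 0.928 by edgeR) and became -0.19 without the mice lettered c, and that at ZT6 was -1.36 (SE 0.86, adjusted p = 1 by edgeR) and became 0.17 without those lettered b. At ZT22 the THRBWT livers, with 13.1, 7.54 and 13.6 CPM, lay above the THRBKO livers, with 4.45, 0.887 and 7.28 CPM.

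Of 23 tested ATF4 targets and regulators, the THRBWT liver b at ZT6 was the highest of its group for 18 and the highest of all 36 livers for 9, where it was so for 31.5% and 4.6% of all tested genes. The THRBKO liver c at ZT14 was the highest of its group for 17 and of all 36 for 6 (37.5% and 5.58% of all genes). These 2 livers had the lowest median correlation with the other libraries among their genotype, 0.9758 and 0.9747, and the part of this in the Asns level was not tested. The THRBWT liver a at ZT2, next for Asns with 22.4 CPM, was the highest of its group for 12 and of all 36 for 1 (33.1% and 2.5% of all genes). The gene most like Asns over the 36 libraries was Mars, the methionyl-tRNA synthetase, with a Pearson's r of 0.706 of log2 CPM. The promoter printed for Asns carries the ATF4 type of element, but no binding was measured. The summed levels of Fabp2, Vil1 and Apoa4, listed as intestine markers, were at 103 CPM or more in every liver. Vil1 had a mean below 1 CPM over all libraries. The paper names Fabp2 among the liver transcripts with a changed mesor, so this sum alone cannot mark gut tissue. In the THRBWT liver b at ZT6 the sum was 272 CPM, the highest of THRBWT. The part of these transcripts in the Asns level was not tested.

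Within groups, mice with more of one cytosolic enzyme had more of the others. Levels were taken as deviations from the mean of the genotype and time, and 36 pairs of genes were compared over 36 mice. Of these, 8 pairs passed a permutation test after Benjamini-Hochberg adjustment and all 8 were positive. How often pairs of other genes pass the same test was not examined. The count is therefore not shown to be particular to these genes. Ass1 and Gls2 were closest, with a Pearson's r of 0.819 (permutation p = 0.00014, adjusted 0.0027) and a Spearman's rho of 0.731 (permutation p = 1e-04, adjusted 0.0036). Ass1 and Asl had r = 0.744 (permutation p = 0.00158, adjusted 0.0142) and rho = 0.674 (permutation p = 0.00122, adjusted 0.011). Asl and Arg1 had r = 0.639 and rho = 0.621, and Ass1 and Arg1 r = 0.604 and rho = 0.648, with adjusted permutation p from 0.0027 to 0.00924. The other pairs were Asl with Gls2 (r = 0.628, rho = 0.565), Arg1 with Gls2 (r = 0.531, rho = 0.478), Otc with Asl (r = 0.53, rho = 0.507) and Gls2 with Aldh4a1 (r = 0.516, rho = 0.589). For these 4 the adjusted permutation p ran from 0.0351 to 0.0418 for r and from 0.0153 to 0.0734 for rho.

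The liver a of THRBWT at ZT10 and the liver c of the same group lay farthest from the median of Ass1. Without them r was 0.712 for Ass1 and Gls2 and 0.605 for Ass1 and Asl, and for the other 6 pairs, each without its own 2 farthest livers, r lay between 0.41 and 0.631. Liver a held the highest Ass1 (4967 CPM), Arg1 (1976 CPM), Gls2 (639 CPM) and Aldh4a1 (297 CPM) of all 36 livers. The same liver had the highest summed level of periportal markers, 7000 CPM beside a THRBWT median of 3910 CPM, and of blood markers, 862 CPM beside 296 CPM, and the part of either in the enzyme levels was not tested. In THRBWT r was 0.915 for Ass1 and Gls2 and 0.869 for Ass1 and Asl, and in THRBKO 0.591 and 0.458. The other 4 pairs of the 4 genes ran lower in THRBKO as well, from 0.375 for Asl and Arg1 (0.774 in THRBWT) to 0.0313 for Arg1 and Gls2 (0.777 in THRBWT), and these differences were not tested. Cps1 was tied to Arg1 with r = 0.587 (rho = 0.516), which did not pass (adjusted permutation p = 0.0536 and 0.0626). Nags passed with no other member, its r running from -0.128 to 0.195, and Asns with none either (r from -0.405 to 0.143).

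**Figure D5:**
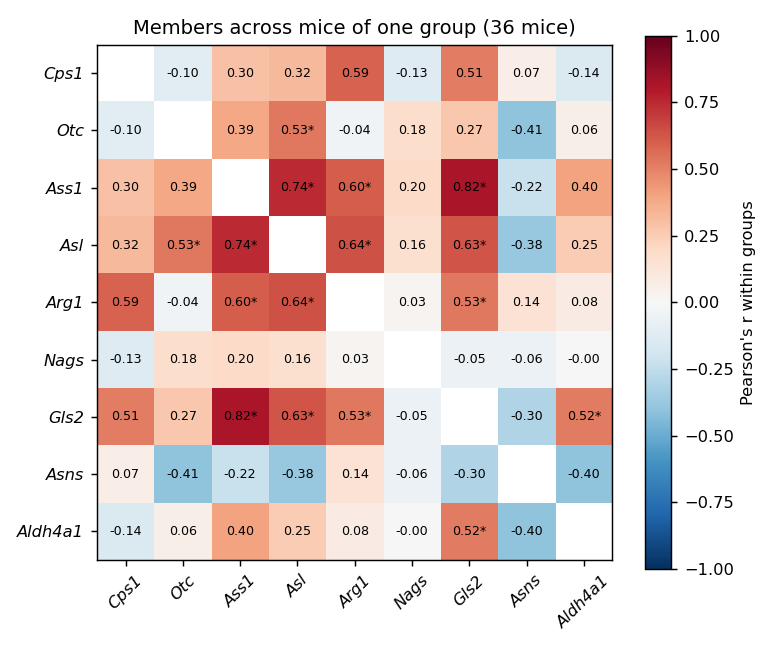
Pearson's r between each pair of the 9 genes over 36 livers, computed on deviations of log2 CPM from the mean of each genotype and time; stars mark adjusted permutation p under 0.05. The block of Ass1, Asl, Arg1 and Gls2 carries 6 of the 8 stars, with r from 0.53 to 0.82.

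Over all 36 libraries, with time of day included, the most similar transcripts among 7776 genes differed from member to member. For Asl these were Ahcy, the hydrolase of S-adenosylhomocysteine (r = 0.938), and Thrsp, known as thyroid hormone responsive and tied to lipid synthesis (r = 0.921). Cps1 ran with Aco1 (r = 0.866), an aconitase that also regulates iron, and Sfxn2 (r = 0.817). Ass1 was nearest to Gm5424 (r = 0.908) and then to Gnmt, the glycine N-methyltransferase (r = 0.829). Gls2 ran with Uroc1, a histidine-degrading enzyme (r = 0.804), and Pdk2 (r = 0.773), and Arg1 with Cpped1 (r = 0.806) and Etnppl (r = 0.784). Nags was most like Rtp3 (r = 0.87) and Mrpl4 (r = 0.86), Otc most like Azgp1 (r = 0.799) and Tmco1 (r = 0.702), and Aldh4a1 most like Sptssa (r = 0.808) and Sqor (r = 0.797). For Asns, Usp14 (r = 0.679) came after Mars. These values share libraries and time of day and are given as a description.

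The likeness of Ass1 and Gm5424 has a limit in the sequence. Gm5424 matched Ass1 at 99.5% over 1240 aligned bases, all of its transcript, and received 15.3 to 21.4% of the Ass1 count (median 17.4%), so reads of the 2 genes may be split. With both summed, the log2 fold change of Ass1 was -0.11 (adjusted p = 0.551 by edgeR). The libraries were not stranded, so reads of Nags and of Gm11586, opposite to it over 443 exon bases (15.6% of Nags), cannot be told apart, nor can those of Gls2 and Spryd4 over 97 bases (2.79%). Aldh4a1 shares 1595 exon bases (32.5%) with Gm21969 on the same strand. Mean counts of Gm11586 and Gm21969 were 11.9 and 2.06, beside 2660 for Nags and 8810 for Aldh4a1.

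Around the cycle, 4 of the genes described here differed between genotypes. Of 15 tested genes of proline, hydroxyproline and ammonia-releasing amino acid metabolism, 1 was lower in THRBKO and 0 higher, beside 0.445% and 0.506% of all genes. Prodh, the proline dehydrogenase that opens the path to glutamate, had 217 ± 49 CPM in THRBWT and 159 ± 36.7 CPM in THRBKO (SD, n = 18 each; log2 fold change -0.45, SE 0.069, adjusted p = 0.000138 by edgeR). The median log2 fold change of this list was 0.03, beside -0.0011 over all genes.

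Prodh and Aldh4a1 catalyse successive steps of the same path. The log2 ratio of Prodh to Aldh4a1 was -0.28 ± 0.31 in THRBWT and -0.72 ± 0.31 in THRBKO (SD, n = 18 each), given without a test because the pair was chosen after the values were seen. Prodh itself was rhythmic in both genotypes, with peaks at ZT 14.7 and ZT 15.2 (adjusted p = 0.00603 and 0.0111, edgeR).

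Of 22 tested enzymes of ammonia, glutamate, aspartate and alanine, 1 was higher in THRBKO and 1 lower, beside 0.95% of all genes in either direction. Asrgl1, which splits asparagine, had 13.4 ± 2.28 CPM in THRBWT and 16.9 ± 3.35 CPM in THRBKO (log2 fold change 0.32, SE 0.061, adjusted p = 0.00305 by edgeR). Gpt, the alanine aminotransferase, had 321 ± 41.9 and 283 ± 36.2 CPM (log2 fold change -0.18, adjusted p = 0.0454). Glul, the glutamine synthetase of pericentral hepatocytes, had 852 ± 77.6 and 801 ± 181 CPM and did not pass (adjusted p = 0.684), and neither did Glud1, the glutamate dehydrogenase, with 864 ± 85.5 and 808 ± 125 CPM (adjusted p = 0.485). The list's median log2 fold change was 0.0034.

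Among 15 tested regulators of the cycle 1 was higher in THRBKO, beside 0.506% of all genes. Foxo1, a transcription factor of fasting metabolism, had 26.1 ± 6.21 CPM in THRBWT and 29.5 ± 5.37 CPM in THRBKO (log2 fold change 0.19, adjusted p = 0.0215 by edgeR). Of 17 tested carriers and of 23 tested amino acid response genes, 0 passed in either direction, with median log2 fold changes of 0.03 and -0.02. The carriers include Slc25a15, which brings ornithine into the mitochondrion (285 ± 33.6 and 298 ± 41.3 CPM, adjusted p = 0.741), and Slc25a13, which carries out aspartate (211 ± 31 and 225 ± 32 CPM, adjusted p = 0.386). Over 14 alternatives Prodh stayed past the threshold in 14, Asrgl1 in 12, Foxo1 in 10 and Gpt in 7, with the direction of the change kept. Gpt and Foxo1 lost their calls with any letter left out and Asrgl1 without letter b (adjusted p = 0.125). With sampling times pooled, Gpt, Asrgl1 and Foxo1 lost their calls as well (adjusted p = 0.344, 0.091 and 0.75, edgeR). Gpt also lost its call without the filter (adjusted p = 0.0683, edgeR). The same held without the THRBWT liver a at ZT10 and without the pair of livers with high Asns (adjusted p = 0.075 each).

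Time of day moved these lists more widely than genotype. The 24 h rhythm test passed in both genotypes for 9 of 17 carriers, 12 of 22 ammonia enzymes, 7 of 15 genes of proline and related metabolism, 9 of 15 regulators and 8 of 23 amino acid response genes, beside 24.5% of all genes. Among the carriers Aqp8, a water and ammonia channel, had an amplitude of 1.4 (SE 0.252) log2 units in THRBWT and 1.34 (SE 0.252) in THRBKO, with peaks at ZT 23.9 and ZT 23.5. Slc7a2, the liver's importer of arginine and other cationic amino acids, followed with 1.01 and 0.758 (SE 0.139 each) and peaks at ZT 8.44 and ZT 9.45. Odc1, which takes ornithine into polyamines, had amplitudes of 0.552 and 0.458 (SE 0.086 each) and peaked at ZT 18.2 and ZT 18.4, and Amd1 of the same path peaked at ZT 12.2 and ZT 11.7.

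In the list of amino acid breakdown, Amdhd1, an enzyme of histidine breakdown, had amplitudes of 0.678 and 0.707 (SE 0.0682 each) with peaks at ZT 4.03 and ZT 4.3. Sds, the serine dehydratase, had amplitudes of 0.664 and 0.531 (SE 0.129 each) and peaked at ZT 10.2 and ZT 11.7. The regulator Cebpb, a C/EBP transcription factor, had amplitudes of 0.469 and 0.391 (SE 0.0874 each). Onecut1, a hepatocyte transcription factor, passed in THRBWT alone (amplitude 0.899 and 0.258, SE 0.269 each, adjusted p = 0.00871 and 0.692 by edgeR), but the joint test of its rhythm difference did not pass. Of the ATF4 genes, Trib3 (1.34 and 1.03, SE 0.163 each) and Chac1 (0.948 and 0.666, SE 0.16 each) had the largest amplitudes in THRBWT and peaked between ZT 6.6 and ZT 7.35, whereas Asns passed the rhythm test in neither genotype.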

How the data were processed

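Counts per gene were deposited by the authors as whole numbers for 54532 genes in 36 libraries, without normalization. Per the labels and the study's methods, polyadenylated RNA was sequenced in non-directional paired-end libraries, mapped to GRCm38 (mm10) with HISAT2 and counted with FeatureCounts. Versions, annotation release and treatment of reads with several matches are not given in the sources used here, so near-identical genes may exchange reads. Genes with at least 100 counts in all (17994) were normalized by TMM and tested by quasi-likelihood F tests in R 4.3.3 (edgeR 4.0.16 with limma 3.58.1), with sampling time as a factor, within each time, for interaction, and with a 24 h cosine and sine pair per genotype. P-values were adjusted by Benjamini-Hochberg over all tested genes, with a threshold of 0.05. Log2 CPM used a prior count of 2. Curve parameters came from least squares on values transformed by DESeq2 1.42.0 (30 residual degrees of freedom), with delta method tests. Correlations within groups were tested by 1e+05 permutations within groups. Matches between transcripts used BLAST 2.17.0. The code of the tests was checked on simulated counts beforehand. The members and the gene lists were chosen with earlier results of these data known. Named from the lists were genes past the genotype or rhythm difference test and, in each list, the 2 largest rhythmic amplitudes in THRBWT among genes with a mean of at least 50 counts. Most similar genes were the 2 highest r among genes with a mean of at least 10 CPM. Glul, Glud1, Slc25a15 and Slc25a13 were added afterwards as the best-known members of their lists. The total counts of 29063273 to 42530551 left at least 21 counts per library for each of the 9 genes. The edgeR tests set each difference against the spread between mice, estimated from all libraries with information shared across genes. In the main tests that estimate took no account of the letters. A further gene of the lists was left out of all counts and is not reported here.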

Additional observations from a re-analysis of the deposited data

How the results depend on the processing

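The 9 genes stayed on their side of the threshold in the genotype comparison under every alternative run, which were DESeq2, its size factors, other filters, robust estimation, the letter as a factor, pooled times, the replicate block, each letter left out, and 3 chosen after seeing the data (without the THRBWT liver a at ZT10, without the THRBWT liver b at ZT6 and the THRBKO liver c at ZT14, and with Gm5424 added to Ass1). Of 654 reported values of the 9 genes under alternatives, 626 kept direction and side of the threshold, 16 lost and 1 gained it, and 11 changed sign without being past it. The number of genes past the threshold was 171 for genotype with ZT, and 65 with times pooled, 275 with the letter as a factor, 315 with DESeq2 and 387 with the replicate block. The causes of these shifts were not tested.

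Equal letters at 1 time were taken as pairs in that block. The correlation of 18 such pairs ran from -0.038 to 0.225, with 9 over 0.1. The sample labels carry numbers that are often close for mice of equal letter and time. The sources do not say what a letter marks, so the pairing was not adopted. That 31 of 36 libraries correlated best with their own letter is a hint from the data that mice of a letter share something. The permutations of the correlations within groups did not take the letters into account. The block gave 1 gene for the rhythm difference in place of 0, and changed the call of no member.

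Leaving out 1 letter or the named livers gave 42 to 253 genes for genotype, 1 to 5 at ZT2, 1 to 3 at ZT6, 1 to 3 at ZT10, 1 to 3 at ZT14, 1 to 5 at ZT18, 1 to 4 at ZT22, 2232 to 2746 and 1955 to 2373 across times in THRBWT and THRBKO, 3827 to 6154 and 3130 to 5694 for the 24 h rhythm, 30 to 47 for the mesor and 2 to 4 for the peak time. The genotype log2 fold change then ran from -0.00366 to 0.0525 for Asl and from -0.0569 to 0.0207 for Nags, and that of Asns from -2.54 to 0.166 at ZT6 and from -0.191 to 2.83 at ZT14. Amplitude differences ran from -0.0842 to 0.0629 for Asl and from -0.0057 to 0.0898 for Nags, and peak time differences from -0.354 to 1.81 h for Nags and from -11 to 7.16 h for Asns. In the test across times in THRBWT, Nags was lost without letters a or c, Aldh4a1 without any letter, and Gls2 gained without c (adjusted p = 0.0408, edgeR), and in THRBKO Nags was lost without c (adjusted p = 0.163, edgeR). Arg1 in THRBKO was also lost without the filter and by least squares (adjusted p = 0.0592 and 0.0582).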
